A study of Rattus norvegicus with 12 samples.

Results

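The genes described here encode the machinery that copies DNA in S phase of the cell cycle, with a few of its regulators. They were taken by symbol from the count table, with earlier results of these data known, and make up 47 of its 33294 genes. All 47 passed the filter on low counts and were among the 18438 genes tested. By role, 12 belong to origin licensing, 7 to helicase activation, 16 to the replication fork, 4 to nucleotide supply, 4 to the control of S phase entry and 4 to chromatin assembly and histone mRNA. Mcm8, which acts in recombination repair, was placed with the helicase activation genes as an MCM relative.

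RNA was sequenced from PAC1 cells, a rat line of pulmonary artery smooth muscle, after siRNA treatment to deplete 1 of 3 RNA-binding splicing regulators. Per the study, these depletions were made in PAC1 cells in the differentiated state, although less differentiated than those of its other sequencing experiment. The 12 poly(A)-selected libraries form 4 groups of 3, in which all cells received 90 pmol of siRNA with a lipid reagent. The control group received the negative control siRNA that the labels call C2, and the RBPMS-KD, RBFOX2-KD and QKI-KD groups received an siRNA against Rbpms, Rbfox2 or Qk (the rat symbol for QKI). Per the labels, the second siRNA dose followed the first by 24 h and RNA was taken 48 h after it, while the methods of the study give longer intervals and the difference was not resolved. PAC1 is a single line, and the study's methods for siRNA knockdown in it give 3 or more biological replicates per condition. The labels do not tie the 3 libraries of a group to separate cultures, so p-values measure the spread between these libraries, part of which may be technical.

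Origins of replication are licensed when the origin recognition complex, CDC6 and CDT1 load the MCM2-7 ring onto DNA, and they fire when CDC45 and the GINS complex turn that ring into an active helicase. DNA polymerases alpha, delta and epsilon then copy the strands with the sliding clamp PCNA, its loader RFC and the single-strand binding protein RPA. Many of these genes are transcribed late in G1 under E2F factors, which the retinoblastoma protein holds back until cyclin-dependent kinases phosphorylate it, and proliferating smooth muscle cells use this programme like other dividing cells.

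The promoters of these genes are shown first because a shared sequence marks many of them. RefSeq promoter windows of the rat assembly GRCr8, from 250 bases before to 50 bases after the annotated start, were at hand for 39 of the 47 genes and not for Orc1, Cdc6, Mcm4, Gins4, Rrm2, E2f1, E2f2 and Ccne2. They were searched on both strands, with overlaps allowed, for the E2F words TTTCGCGC, TTTGGCGC, TTTCCCGC and TTTGCCGC. CCAAT and TTTGAA were searched likewise, the latter described with the mitosis genes below. CCAAT was present in 23 of the 39 promoters (59%), against 37.7% of all promoters. At least 1 E2F word was present in 18 of the 39 promoters (46.2%), against 618 of 27457 promoters of the same length in the whole table (2.25%). The words were found in 7 of 9 licensing promoters, 3 of 6 helicase promoters, 6 of 16 fork promoters, 1 of 3 nucleotide promoters and 1 of 4 chromatin promoters. One window for each of 9 genes whose levels are described below is printed on the strand of the gene from 5′ to 3′, with the word, or overlapping words, in capitals.
Mcm2, chr4:122918075-122918130, minus strand: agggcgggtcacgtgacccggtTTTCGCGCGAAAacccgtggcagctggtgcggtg
Mcm5, chr19:13488578-13488633, plus strand: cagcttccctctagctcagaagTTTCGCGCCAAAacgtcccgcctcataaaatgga
Mcm6, chr13:42404458-42404513, minus strand: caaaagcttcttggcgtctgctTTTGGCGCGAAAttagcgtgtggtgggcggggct
Mcm7, chr12:22163201-22163252, minus strand: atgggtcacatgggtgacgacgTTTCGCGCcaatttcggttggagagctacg
Gins1, chr3:160184873-160184928, plus strand: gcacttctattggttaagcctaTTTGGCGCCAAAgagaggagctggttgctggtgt
Mcm8, chr3:140539611-140539662, plus strand: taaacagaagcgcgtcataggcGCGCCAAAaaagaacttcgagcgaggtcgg
Pola1, chrX:62342498-62342549, minus strand: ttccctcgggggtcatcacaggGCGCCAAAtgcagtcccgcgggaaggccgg
Pole, chr12:52053635-52053686, minus strand: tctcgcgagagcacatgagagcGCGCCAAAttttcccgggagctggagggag
Tyms, chr9:120776091-120776142, minus strand: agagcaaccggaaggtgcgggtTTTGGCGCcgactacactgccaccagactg
Mcm5 and Mcm7 each hold 1 more window, which is not printed. In Mcm2, Mcm5, Mcm6 and Gins1, a word on each strand overlapped to form a run of 12 bases. The counts were made on another assembly (mRatBN7.2), so these positions belong to GRCr8 alone.

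Library totals ran from 111 to 152 M counts, and the lowest count of any of the 47 genes in any library was 1080. Whether a count stands for a read or for a pair of reads is not given in the sources used here. The siRNA targets were lower in their own groups, Rbpms at 40.7 CPM in control and 7.21 CPM in RBPMS-KD, Rbfox2 at 154 and 37.3 CPM, and Qk at 233 and 26.6 CPM. Rbpms was also lower in RBFOX2-KD (23.1 CPM, log2 fold change −0.81) and in QKI-KD (29.0 CPM, −0.49). Qk was at 174 CPM in RBFOX2-KD and 265 CPM in RBPMS-KD, and Rbfox2 at 142 CPM in RBPMS-KD and 139 CPM in QKI-KD. The part of these changes in the results below was not tested. CPM are counts divided by the library total in M, scaled by TMM, and all levels below are group means or single libraries on this scale. The summed level of 8 smooth muscle markers moved with the groups as well, from 2110 to 2175 CPM in the control libraries to 1069 to 1176 CPM in RBPMS-KD, 827 to 925 CPM in RBFOX2-KD and 1441 to 1526 CPM in QKI-KD. Acta2 and Tagln, at 990 and 687 CPM in control, made up most of that sum. By edgeR's quasi-likelihood test, 6, 5 and 5 of the 8 markers were lower in RBPMS-KD, RBFOX2-KD and QKI-KD, beside 29.0%, 30.1% and 34.0% of all genes. In each knockdown 2 were higher, beside 30.4%, 30.1% and 32.9%. They were Myh11 and Myocd in RBPMS-KD and QKI-KD and Myh11 and Smtn in RBFOX2-KD. Myocd in RBPMS-KD (adjusted p 0.0249) and Myh11 in QKI-KD (adjusted p 0.0474) were near the threshold of 0.05. Markers of other cell types had lower sums that also differed between groups. In control, RBPMS-KD, RBFOX2-KD and QKI-KD in turn, 5 fibroblast genes summed to 125 to 208, 106 to 133, 136 to 165 and 79.1 to 92.7 CPM. The 5 endothelial genes summed to 8.73 to 10.8, 8.84 to 9.12, 5.18 to 5.76 and 6.46 to 6.75 CPM, and the 5 leukocyte genes to 1.77 to 2.17, 2.62 to 3.11, 2.23 to 3.00 and 6.18 to 6.42 CPM. The 5 epithelial genes summed to 29.5 to 31.7, 36.3 to 44.2, 72.0 to 73.9 and 32.3 to 34.2 CPM. Kdr was at 3 counts or fewer in each control and RBFOX2-KD library, Ptprc in each library of the groups other than RBPMS-KD, and Krt19 in all 12. The part of these markers in the results below was not tested.

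Most of the replication genes were higher after RBPMS knockdown, while after RBFOX2 or QKI knockdown some rose and others fell. In RBPMS-KD, 42 of the 47 genes were higher than control, beside 30.4% of all genes, and 3 were lower, beside 29.0%. In RBFOX2-KD, 21 were higher, beside 30.1% of all genes, and 11 were lower, beside 30.1%. In QKI-KD, 27 were higher, beside 32.9%, and 14 were lower, beside 34.0%. A gene counted as higher or lower at a Benjamini-Hochberg adjusted p under 0.05 over all 18438 genes by edgeR's quasi-likelihood test, and the 3 comparisons share the control libraries. The median log2 fold change of the 47 genes was 0.36 in RBPMS-KD, 0.09 in RBFOX2-KD and 0.14 in QKI-KD, beside all-gene medians of 0.01, 0.01 and 0.01. In bulk RNA, a larger share of cells in S phase and more of these mRNAs in each such cell cannot be told apart.

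The changes were small for single genes and large beside the spread between libraries. Only Mcm10 in RBPMS-KD passed a 2-fold change as well as the test, so 1, 0 and 0 of the 47 genes did so in RBPMS-KD, RBFOX2-KD and QKI-KD, beside 9.66%, 11.7% and 17.5% of all genes. The median coefficient of variation of the 47 genes over 3 libraries was 3.10% in control, 3.64% in RBPMS-KD, 1.90% in RBFOX2-KD and 1.57% in QKI-KD. All 3 knockdown libraries lay above all 3 control libraries for 42 genes in RBPMS-KD, beside 31.2% of all genes, for 25 in RBFOX2-KD, beside 34.8%, and for 29 in QKI-KD, beside 35.9%. The 47 genes together held 0.360 to 0.371% of the counts of a control library, 0.447 to 0.461% in RBPMS-KD, 0.398 to 0.406% in RBFOX2-KD and 0.396 to 0.401% in QKI-KD. With library totals in place of TMM the medians were 0.14 in RBFOX2-KD and 0.22 in QKI-KD, 2 genes (Pola1 and Mcm8) passed 2-fold in QKI-KD, and the counts higher and lower were 26 and 8 in RBFOX2-KD and 31 and 11 in QKI-KD. Without control replicate 2, Mcm8 passed 2-fold in QKI-KD (log2 fold change 1.01), and without RBPMS-KD replicate 2, Ccne2 did so in RBPMS-KD (1.00).

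**Figure D1:**
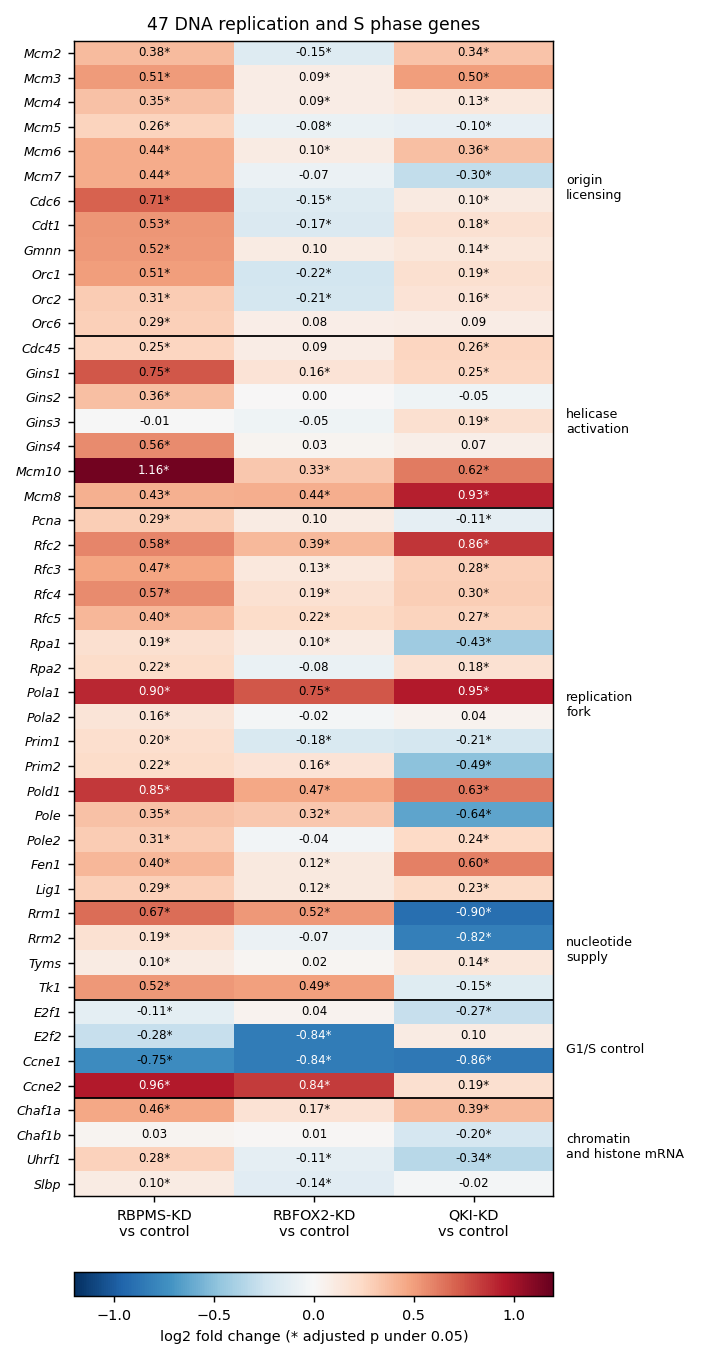
Log2 fold change of the 47 genes (rows, grouped by role) in each knockdown against control (columns), with red for higher, blue for lower and an asterisk at an adjusted p under 0.05. The RBPMS-KD column is red in nearly every row down to the control of S phase entry, whereas the QKI-KD column holds its darkest blue at Rrm1, Ccne1 and Rrm2.

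All 12 origin licensing genes were higher in RBPMS-KD (median log2 fold change 0.44, range 0.26 to 0.71), where 30.4% of all genes were. In RBFOX2-KD 3 were higher and 6 lower (median −0.08), beside 30.1% and 30.1% of all genes, and in QKI-KD 9 were higher and 2 lower (median 0.15), beside 32.9% and 34.0%. The shares of all genes are the same for the other roles and lists below. Cdc6, which loads the MCM ring with CDT1, was at 38.7, 38.2 and 36.1 CPM in control, 61.6, 63.4 and 59.5 in RBPMS-KD, 34.3, 33.9 and 33.6 in RBFOX2-KD and 40.7, 39.9 and 40.8 in QKI-KD. Its RBPMS-KD libraries stood far above the other groups, and its RBFOX2-KD libraries were all below control. The log2 fold changes were 0.71 (SE 0.0378, adjusted p 5.77e-11), −0.15 (SE 0.0380, adjusted p 0.00243) and 0.10 (SE 0.0379, adjusted p 0.0237). The last of these no longer passed without control replicate 3 (0.07) or without QKI-KD replicate 1 or 3 (0.10 and 0.10).

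Cdt1, the partner of CDC6 in loading, was at 53.1, 55.9 and 49.5 CPM in control, 73.6, 79.1 and 76.3 in RBPMS-KD, 48.4, 47.3 and 44.8 in RBFOX2-KD and 60.3, 59.0 and 60.6 in QKI-KD. The 4 groups did not overlap, with RBPMS-KD highest and RBFOX2-KD lowest. Its log2 fold changes were 0.53 (SE 0.0451, adjusted p 1.98e-08), −0.17 (SE 0.0453, adjusted p 0.00319) and 0.18 (SE 0.0452, adjusted p 0.00177). Orc1 and Orc2, subunits of the origin recognition complex, had the same order of groups, with log2 fold changes of 0.51, −0.22 and 0.19 for Orc1 and 0.31, −0.21 and 0.16 for Orc2. Gmnn, which encodes the CDT1 inhibitor geminin, rose by 0.52 in RBPMS-KD and by 0.14 in QKI-KD, the latter lost without control replicate 3 (0.12) or QKI-KD replicate 2 (0.12), and its value in RBFOX2-KD was 0.10 (adjusted p 0.0622), which passed without RBPMS-KD replicate 2 (0.10) and with library totals (0.16).

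The 6 genes of the MCM2-7 ring rose in RBPMS-KD by 0.26 (Mcm5) to 0.51 (Mcm3) on the log2 scale, but did not move as 1 block in the other groups. In QKI-KD, Mcm3 (0.50), Mcm6 (0.36), Mcm2 (0.34) and Mcm4 (0.13) rose while Mcm7 (−0.30) and Mcm5 (−0.10) fell. Mcm7 was at 192, 205 and 188 CPM in control and 160, 159 and 157 in QKI-KD, groups that did not overlap. In RBFOX2-KD the clearest change was a fall of Mcm2 (−0.15, SE 0.0299, adjusted p 0.000247). The other RBFOX2-KD calls in the ring were near the threshold and each was lost without some single libraries, Mcm3 (0.09) without control replicate 1 or 3 or RBFOX2-KD replicate 1 or 2 (0.08, 0.08, 0.07 and 0.07), Mcm4 (0.09) without control replicate 1 or RBFOX2-KD replicate 2 or 3 (0.09, 0.08 and 0.08), Mcm6 (0.10) without control replicate 1 or RBFOX2-KD replicate 1 or 3 (0.09, 0.09 and 0.08), and Mcm5 (−0.08) without control replicate 2 or RBFOX2-KD replicate 1 or 2 (−0.05, −0.09 and −0.09) and with library totals (−0.03). The fall of Mcm5 in QKI-KD was lost without control replicate 2 (−0.07) or QKI-KD replicate 2 (−0.09) and with library totals (−0.01). Mir25, Mir93 and Mir106b lie within Mcm7, and 15 of the 47 genes overlap another annotated gene, 7 of them a protein-coding one (Lig1, Fen1, Ccne2, Rrm2, Pole2, Uhrf1 and Gins2). The sources used here do not give the strand setting of the counter, and the values of these genes are uncertain to that extent.

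Among helicase activation genes, Mcm10 showed the largest rise of the whole set in RBPMS-KD. Its protein helps the assembled helicase to start unwinding. Levels were 19.9, 21.1 and 20.1 CPM in control, 46.7, 43.3 and 46.4 in RBPMS-KD, 26.0, 26.1 and 24.4 in RBFOX2-KD and 31.5, 31.3 and 31.2 in QKI-KD. Every knockdown library lay above every control library, and RBPMS-KD lay above the rest. This gave a 2.23-fold level in RBPMS-KD (log2 fold change 1.16, SE 0.0433, adjusted p 6.53e-13), with log2 fold changes of 0.33 in RBFOX2-KD (SE 0.0434, adjusted p 4.67e-06) and 0.62 in QKI-KD (SE 0.0434, adjusted p 8.75e-10).

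Mcm8, an MCM relative that acts in recombination repair, followed another order. It was at 8.85, 10.3 and 8.96 CPM in control, 13.2, 12.1 and 12.6 in RBPMS-KD, 12.7, 12.02 and 13.3 in RBFOX2-KD and 17.9, 18.4 and 17.4 in QKI-KD. QKI-KD was highest, RBPMS-KD and RBFOX2-KD overlapped, and control was lowest. The log2 fold changes were 0.43 (SE 0.0637, adjusted p 1.72e-05), 0.44 (SE 0.0632, adjusted p 1.23e-05) and 0.93 (SE 0.0628, adjusted p 5.36e-10). Of the 4 GINS genes, whose products form 1 complex, Gins1, Gins2 and Gins4 rose in RBPMS-KD by 0.75, 0.36 and 0.56, while Gins3 stood at −0.01 (adjusted p 0.876) there and rose by 0.19 in QKI-KD. Cdc45 rose by 0.25 in RBPMS-KD and 0.26 in QKI-KD, and its RBFOX2-KD value of 0.09 passed only without control replicate 2 (0.12), without RBPMS-KD replicate 2 (0.09), with library totals (0.14) and under some other settings.

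All 16 replication fork genes rose in RBPMS-KD (median log2 fold change 0.33, range 0.16 to 0.90), with 11 higher and 1 lower in RBFOX2-KD (median 0.12) and 10 higher and 5 lower in QKI-KD (median 0.24). Pola1, the catalytic subunit of the polymerase that starts each strand, was at 39.2, 42.6 and 43.9 CPM in control, 82.5, 74.5 and 78.0 in RBPMS-KD, 68.6, 70.4 and 72.3 in RBFOX2-KD and 82.0, 79.6 and 81.9 in QKI-KD. It was the fork gene with the highest rise in RBPMS-KD, RBFOX2-KD and QKI-KD alike, and none of these libraries overlapped with control. The log2 fold changes were 0.90 (SE 0.0456, adjusted p 2.98e-11), 0.75 (SE 0.0455, adjusted p 2.33e-10) and 0.95 (SE 0.0456, adjusted p 5.20e-12). Its accessory subunit Pola2 stood at 0.16, −0.02 and 0.04, of which only the RBPMS-KD value passed the test, although the QKI-KD value did so with library totals (0.13) and on the normalised table (0.14).

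Rfc2, a subunit of the clamp loader, was at 32.1, 32.3 and 33.2 CPM in control, 47.5, 51.8 and 46.8 in RBPMS-KD, 42.4, 43.6 and 41.5 in RBFOX2-KD and 60.4, 58.8 and 58.1 in QKI-KD. The 4 groups did not overlap, and QKI-KD was highest. Its log2 fold changes were 0.58 (SE 0.0417, adjusted p 2.27e-09), 0.39 (SE 0.0416, adjusted p 3.84e-07) and 0.86 (SE 0.0416, adjusted p 5.87e-12). The other loader genes, Rfc3, Rfc4 and Rfc5, rose by 0.40 to 0.57 in RBPMS-KD, 0.13 to 0.22 in RBFOX2-KD and 0.27 to 0.30 in QKI-KD.

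Pole, the gene for the catalytic subunit of the leading strand polymerase, had the largest fall of the fork genes in QKI-KD. It was at 52.4, 54.8 and 58.4 CPM in control, 75.7, 63.2 and 72.7 in RBPMS-KD, 69.2, 67.0 and 71.1 in RBFOX2-KD and 34.6, 36.2 and 35.7 in QKI-KD. RBPMS-KD and RBFOX2-KD lay above control and QKI-KD below it, with log2 fold changes of 0.35 (SE 0.0560, adjusted p 3.38e-05), 0.32 (SE 0.0559, adjusted p 7.91e-05) and −0.64 (SE 0.0569, adjusted p 2.43e-08). Prim2, a primase subunit, moved likewise at 0.22, 0.16 and −0.49, and so did Rpa1, the large RPA subunit, at 0.19, 0.10 and −0.43. The RBFOX2-KD rise of Rpa1 was lost without control replicate 2 (0.09) or RBFOX2-KD replicate 3 (0.08). By contrast Pold1, the catalytic subunit of the lagging strand polymerase, rose by 0.85, 0.47 and 0.63, and Fen1, the flap nuclease that trims lagging strand fragments, rose by 0.40, 0.12 and 0.60. Partner subunits of the falling genes differed in QKI-KD. Pole2 (14.1 CPM in control and 16.6 in QKI-KD) and Rpa2 (48.8 and 55.3) were higher past the test, and Prim1 (72.2 and 62.2) was lower. Pcna rose by 0.29 in RBPMS-KD and stood at 0.10 in RBFOX2-KD (adjusted p 0.0588), a value that passed without RBPMS-KD replicate 1 (0.10) or 2 (0.10), with library totals (0.15), on the normalised table (0.16) and under some other settings. Its fall of 0.11 in QKI-KD was lost without control replicate 1 (−0.09) or 2 (−0.09), without QKI-KD replicate 2 (−0.10) or 3 (−0.09), and with library totals (−0.02).

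The nucleotide supply genes held the largest fall of the set in QKI-KD, that of Rrm1. Rrm1, the large subunit of ribonucleotide reductase, which makes deoxynucleotides, was at 169, 172 and 173 CPM in control, 279, 270 and 266 in RBPMS-KD, 245, 243 and 247 in RBFOX2-KD and 91.3, 90.7 and 92.5 in QKI-KD. The 4 groups were fully apart, with RBPMS-KD and RBFOX2-KD above control and QKI-KD below it. The log2 fold changes were 0.67 (SE 0.0302, adjusted p 7.16e-12), 0.52 (SE 0.0301, adjusted p 1.33e-10) and −0.90 (SE 0.0305, adjusted p 5.02e-14).

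Rrm2, the small subunit and the one whose level changes most over the cell cycle, was at 103, 103 and 99.3 CPM in control, 117, 121 and 110 in RBPMS-KD, 98.9, 94.2 and 97.3 in RBFOX2-KD and 58.1, 58.1 and 57.1 in QKI-KD. Its QKI-KD libraries lay far below the rest, and its log2 fold change there was −0.82 (SE 0.0379, adjusted p 3.29e-12). In RBPMS-KD it rose by 0.19 (SE 0.0373, adjusted p 0.000346), and in RBFOX2-KD its value was −0.07 (adjusted p 0.0969), a difference that passed the test without RBPMS-KD replicate 2 (−0.08). Tk1, the thymidine salvage kinase, rose by 0.52 in RBPMS-KD and 0.49 in RBFOX2-KD and fell by 0.15 in QKI-KD, a fall lost with library totals (−0.06). Tyms, which makes thymidylate, rose by 0.14 in QKI-KD and by 0.10 in RBPMS-KD (adjusted p 0.0134), the latter lost without control replicate 1 (0.09) or 2 (0.09), without RBPMS-KD replicate 1 (0.08) and with library totals (0.06).

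**Figure D2:**
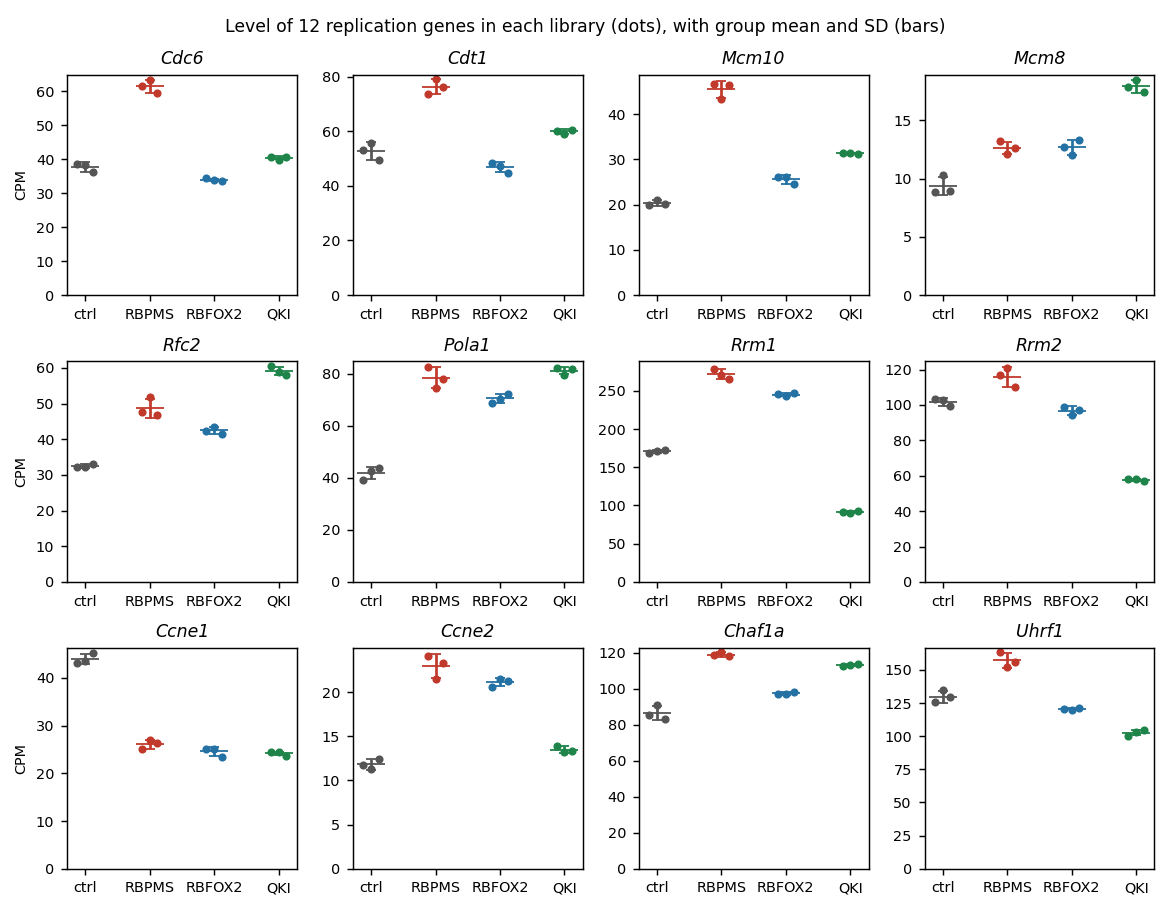
Level (CPM) of 12 genes in every library (dots), with the mean and SD of 3 libraries per group as bars and each axis starting at 0. Mcm10, Cdc6 and Cdt1 peak in RBPMS-KD, Mcm8 and Rfc2 in QKI-KD, Rrm1 and Rrm2 are lowest in QKI-KD, and Ccne1 is lower in every knockdown library than in every control library.

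The genes that control entry into S phase split, with 1 higher and 3 lower in RBPMS-KD, 1 and 2 in RBFOX2-KD and 1 and 2 in QKI-KD. Ccne1, which encodes cyclin E1, a partner of CDK2, was at 43.2, 43.5 and 45.1 CPM in control, 25.1, 26.9 and 26.3 in RBPMS-KD, 25.2, 25.2 and 23.5 in RBFOX2-KD and 24.4, 24.4 and 23.7 in QKI-KD. All 9 knockdown libraries lay below all control libraries. Its log2 fold changes were −0.75 (SE 0.0419, adjusted p 1.01e-10), −0.84 (SE 0.0418, adjusted p 1.81e-11) and −0.86 (SE 0.0420, adjusted p 6.59e-12).

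Ccne2, the gene for cyclin E2, was at 11.7, 11.3 and 12.5 CPM in control, 24.1, 21.4 and 23.3 in RBPMS-KD, 20.6, 21.5 and 21.3 in RBFOX2-KD and 13.9, 13.2 and 13.3 in QKI-KD. Its RBPMS-KD and RBFOX2-KD libraries were well above control while QKI-KD was only just above it. The log2 fold changes were 0.96 (SE 0.0534, adjusted p 1.04e-10), 0.84 (SE 0.0532, adjusted p 4.16e-10) and 0.19 (SE 0.0541, adjusted p 0.00500). The span of Ccne2 overlaps that of Ints8. Of the activator E2F factors, E2f2 fell by 0.84 in RBFOX2-KD (SE 0.0552, adjusted p 6.90e-10) and by 0.28 in RBPMS-KD, and E2f1 fell by 0.27 in QKI-KD (SE 0.0343, adjusted p 1.79e-06) and by 0.11 in RBPMS-KD, the latter lost when only the 6 libraries of the comparison were fitted (−0.11, adjusted p 0.0537).

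Of the 4 chromatin genes, 3 were higher and 0 lower in RBPMS-KD, 1 and 2 in RBFOX2-KD and 1 and 2 in QKI-KD. Chaf1a, the large subunit of the chromatin assembly factor CAF-1 that places histones on new DNA, was at 85.6, 90.7 and 83.1 CPM in control, 118, 121 and 118 in RBPMS-KD, 97.2, 96.8 and 98.3 in RBFOX2-KD and 113, 113 and 114 in QKI-KD. All knockdown libraries were above control, with log2 fold changes of 0.46 (SE 0.0342, adjusted p 3.81e-09), 0.17 (SE 0.0342, adjusted p 0.000316) and 0.39 (SE 0.0342, adjusted p 1.95e-08). Its partner Chaf1b stood at 0.03, 0.01 and −0.20, of which only the QKI-KD fall passed the test. That fall shrank to −0.11 with library totals and was lost on the normalised table (−0.08).

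Uhrf1, which carries DNA methylation over to new strands, was at 125, 135 and 129 CPM in control, 163, 152 and 156 in RBPMS-KD, 121, 120 and 121 in RBFOX2-KD and 100.5, 103 and 105 in QKI-KD. RBPMS-KD was above control and the other knockdowns below it, with log2 fold changes of 0.28 (SE 0.0357, adjusted p 3.53e-06), −0.11 (SE 0.0357, adjusted p 0.0168) and −0.34 (SE 0.0358, adjusted p 2.24e-07). The RBFOX2-KD fall was lost without control replicate 2 (−0.08) and with library totals (−0.05). Slbp, which binds the stem-loop of histone mRNA, stood at 0.10, −0.14 and −0.02, its fall in RBFOX2-KD was lost with library totals (−0.08), and its rise in RBPMS-KD (adjusted p 0.0295) was lost without any 1 of the control libraries (0.11, 0.10 and 0.09), without RBPMS-KD replicate 2 (0.05) and with library totals (0.05).

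**Figure D3:**
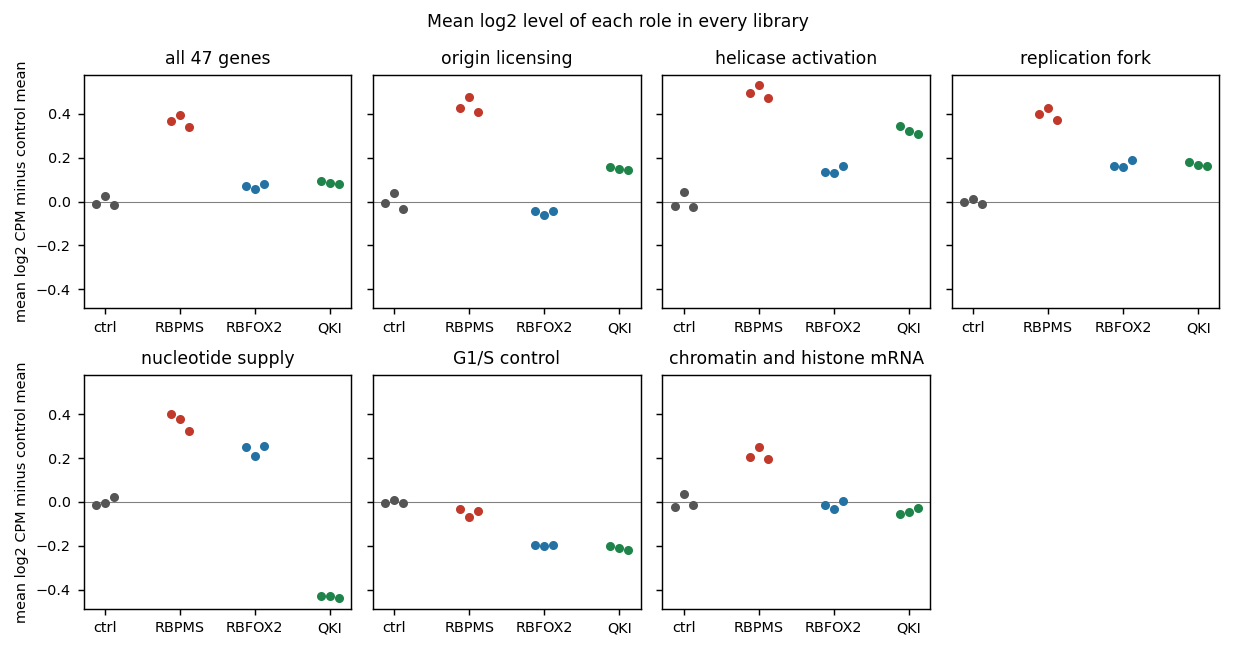
Mean log2 CPM of the genes of each role in every library, set to 0 at the mean of the control libraries, with a panel for all 47 genes and 1 per role. RBPMS-KD libraries sit at 0.34 to 0.39 over the whole set, RBFOX2-KD at 0.06 to 0.08 and QKI-KD at 0.08 to 0.10, and nucleotide supply is the panel in which QKI-KD falls to −0.43 to −0.44.

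The knockdowns were then compared with each other, which tests the differences between them directly. Against RBFOX2-KD, 38 of the 47 genes were higher in RBPMS-KD, beside 28.8% of all genes, and 1 (E2f1) was lower, beside 27.9%. Against QKI-KD, 33 were higher in RBPMS-KD, beside 32.0%, and 5 were lower, beside 29.0%. Between the remaining knockdowns, 12 were higher in RBFOX2-KD than in QKI-KD, beside 35.0%, and 24 were lower, beside 33.5%. On the TMM scale, the mean level was highest in RBPMS-KD for 37 of the 47 genes, in QKI-KD for 8 and in control or RBFOX2-KD for 1 each. This order of means was not counted over all genes or with other scalings.

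Different genes led these comparisons of RBPMS-KD. Over RBFOX2-KD the largest differences in RBPMS-KD were those of Cdc6 (log2 difference 0.86, 95% interval 0.77 to 0.95), Mcm10 (0.83, 0.73 to 0.93), Orc1 (0.72) and Cdt1 (0.70, 0.60 to 0.81). Over QKI-KD they were those of Rrm1 (1.57, SE 0.0309), Rrm2 (1.01, 0.92 to 1.09) and Pole (0.99, 0.86 to 1.12), and the genes lower in RBPMS-KD than in QKI-KD were Mcm8 (−0.50), E2f2 (−0.38), Rfc2 (−0.28), Fen1 (−0.20) and Gins3 (−0.20). RBFOX2-KD also exceeded QKI-KD for Rrm1 (1.42), the only gene of the 47 over 2-fold in that comparison with TMM scaling. Some genes did not pass the test between knockdowns, such as Mcm3 and Mcm2 between RBPMS-KD and QKI-KD (intervals −0.06 to 0.08 and −0.03 to 0.11), Pola1 for the same pair (−0.16 to 0.05), and Ccne2 and Ccne1 between RBPMS-KD and RBFOX2-KD (−0.00 to 0.24 and −0.01 to 0.18). With library totals Mcm3, Mcm2 and Pola1 passed as lower in RBPMS-KD than in QKI-KD (−0.12, −0.09 and −0.18). Without RBPMS-KD replicate 2 Ccne2 passed as higher in RBPMS-KD than in RBFOX2-KD (0.17), and without RBPMS-KD replicate 1 so did Ccne1 (0.11).

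These counts depend on the scaling. The median log2 difference of the 47 genes was 0.28 between RBPMS-KD and RBFOX2-KD and 0.22 between RBPMS-KD and QKI-KD, beside all-gene medians of −0.01 and 0.01. With library totals the medians were 0.18 and 0.09 beside all-gene medians of −0.11 and −0.12, the genes higher in RBPMS-KD numbered 29 and 24, and those lower 1 and 11. The difference changed sign for 8 of the 47 genes in the first comparison and for 10 in the second, of which 3 (Mcm3, Mcm2 and Lig1) then passed as lower in RBPMS-KD. Over all genes the same change of scaling moved the split of higher and lower calls from 5312 and 5143 to 3851 and 6662 for RBPMS-KD against RBFOX2-KD, and from 5905 and 5344 to 4396 and 7148 for RBPMS-KD against QKI-KD. Rrm1, Rrm2 and Pole remained higher in RBPMS-KD than in QKI-KD by 1.44, 0.88 and 0.86 with library totals.

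**Figure D4:**
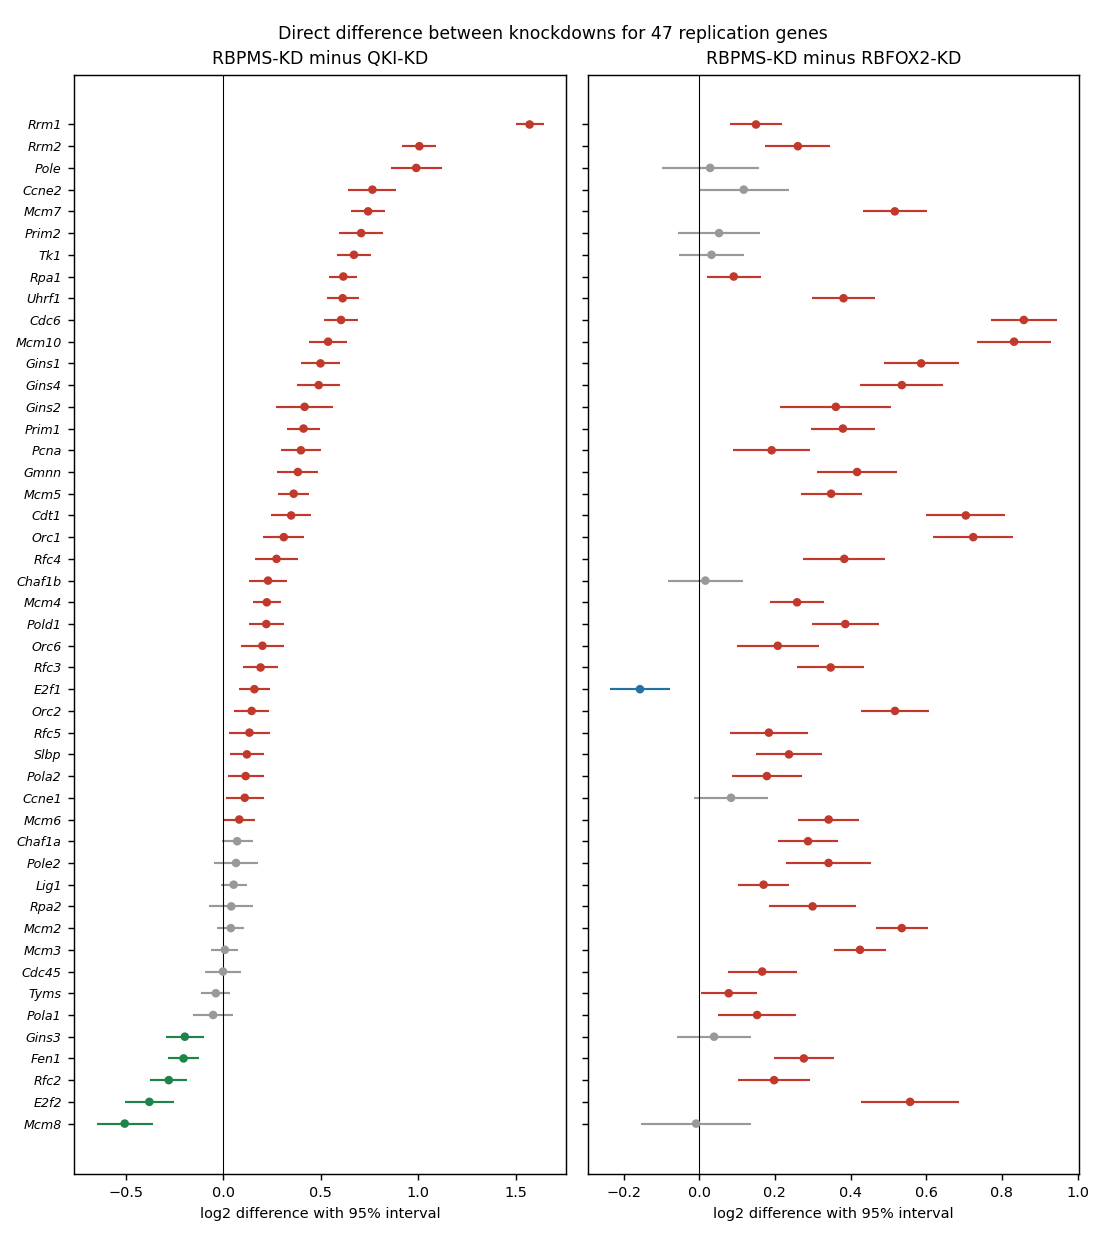
Log2 difference with its 95% interval for the 47 genes, RBPMS-KD minus QKI-KD at the left and RBPMS-KD minus RBFOX2-KD at the right, in the order of the left panel, with grey for genes not past the test. Rrm1 stands alone at 1.57 in the left panel, and Cdc6, Mcm10, Orc1 and Cdt1 lead the right panel.

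The genes with and without an E2F word were set side by side, with no test of the difference. In RBPMS-KD, 17 of the 18 genes with a word were higher and 0 lower (median log2 fold change 0.40), against 19 higher and 1 lower of the 21 genes without one (median 0.31). In QKI-KD the genes with a word were higher in 14 cases and lower in 3 (median 0.21), while those without split into 9 higher and 9 lower (median 0.04). In RBFOX2-KD the counts were 8 higher and 4 lower (median 0.06) against 11 higher and 4 lower (median 0.10). Beside these, 32.9% of all genes were higher and 34.0% lower in QKI-KD. Of the 8 genes with no promoter in the table, 6 were higher and 2 lower in RBPMS-KD, 2 and 3 in RBFOX2-KD and 4 and 2 in QKI-KD. In QKI-KD Pole fell with a word in its promoter (shown above) and Rfc2 rose without one. Mean GC content of the windows was 59.2% for the 39 genes, against 53.1% over all promoters, and was not matched between the sets.

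Other genes of the same pathway were followed through lists of their own. Of 32 tested genes for other replication factors, 23 were higher and 5 lower in RBPMS-KD (median 0.23), 11 and 11 in RBFOX2-KD (median −0.01) and 14 and 7 in QKI-KD (median 0.05), beside 30.4% and 29.0%, 30.1% and 30.1%, and 32.9% and 34.0% of all genes. The counts in RBFOX2-KD were near the shares of all genes. The changes that stood out were rises of Exo1 (0.79), a nuclease, and Dbf4 (0.72), which activates the CDC7 kinase at origins, in RBPMS-KD, a fall of Dtl (−0.58), which directs CDT1 to degradation, in RBFOX2-KD, and in QKI-KD a fall of Top1 (−1.16), the enzyme that relaxes DNA ahead of forks, from 72.1 ± 1.40 to 32.2 ± 0.498 CPM (SD, n = 3), beside rises of Pold3 (0.87) and Pole3 (0.71), accessory polymerase subunits. Of 16 other nucleotide and chromatin genes, 11 were higher and 2 lower in RBPMS-KD, 8 and 4 in RBFOX2-KD and 9 and 5 in QKI-KD. Asf1b, a histone chaperone that hands histones to CAF-1, had log2 fold changes of 1.46, 1.40 and 1.52 from 19.6 ± 1.21 CPM in control. Rrm2b, the p53-induced small subunit of ribonucleotide reductase, rose by 1.64 in RBFOX2-KD (SE 0.0741, adjusted p 4.76e-12), from 9.55 ± 0.749 to 29.9 ± 0.384 CPM.

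Of 17 other E2F, RB and CDK2 genes, 7 were higher and 8 lower in RBPMS-KD, 4 and 11 in RBFOX2-KD and 8 and 6 in QKI-KD, beside about equal shares of all genes higher and lower (30.4% and 29.0%, 30.1% and 30.1%, 32.9% and 34.0%). Rb1, the retinoblastoma gene that restrains E2F factors, fell from 30.8 ± 0.787 to 7.66 ± 0.185 CPM in QKI-KD (log2 fold change −2.01, SE 0.0561, adjusted p 4.42e-15) and to 17.5 ± 1.40 CPM in RBPMS-KD (−0.82, SE 0.0529, adjusted p 6.60e-10). Its relative Rbl2 fell by 1.26 in QKI-KD and by 0.56 in RBPMS-KD, and Cdc25a, the phosphatase that activates CDK2, rose by 1.04 in QKI-KD. E2f4, a repressor member of the E2F family, fell from 59.8 ± 0.605 to 20.2 ± 0.245 CPM in RBFOX2-KD (−1.57, SE 0.0400, adjusted p 3.02e-15).

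The D cyclins, which act with CDK4 and CDK6 before S phase, differed from each other. Ccnd1 fell from 1262 ± 53.3 to 268 ± 7.41 CPM in QKI-KD (−2.23, SE 0.0366, adjusted p 6.71e-18), and rose by 0.23 in RBPMS-KD and 0.30 in RBFOX2-KD. Ccnd2, at 28.6 ± 2.01 CPM in control, was lower in RBPMS-KD, RBFOX2-KD and QKI-KD, with log2 fold changes of −1.60, −2.57 and −4.07. Ccnd3, named after its values were seen, stood at 188 CPM in control and was lower in the same groups at 129, 137 and 139.9 CPM, with log2 fold changes of −0.54, −0.45 and −0.43. The list of 12 D cyclins and CDK inhibitors had 3 genes higher and 5 lower in RBPMS-KD, 2 and 6 in RBFOX2-KD and 3 and 8 in QKI-KD, and its shares higher were no greater than those of all genes (30.4%, 30.1% and 32.9%). Its shares lower were above those of all genes (29.0%, 30.1% and 34.0%).

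Mitosis genes, which are transcribed after S phase, were taken for comparison. In RBPMS-KD 19 of 20 were higher and 0 lower (median 0.34), close to the median of 0.36 of the replication set, in RBFOX2-KD 12 were higher and 4 lower (median 0.16), and in QKI-KD 7 were higher and 6 lower (median 0.02), the last near the 32.9% and 34.0% of all genes. Cdc20, which activates the anaphase-promoting complex, rose by 0.70 in RBPMS-KD and 0.45 in RBFOX2-KD. Bub1b, a spindle checkpoint kinase, fell from 102 ± 1.67 to 46.9 ± 1.53 CPM in RBFOX2-KD (−1.13, SE 0.0361, adjusted p 5.30e-14). The promoter words differed between the lists, as 1 of 17 mitosis promoters held an E2F word (5.88%) and 11 held TTTGAA (64.7%), against 18.1% of all promoters and 4 of 39 in the replication set (10.3%). CCAAT was present in 14 of the 17 mitosis promoters (82.4%).

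**Figure D5:**
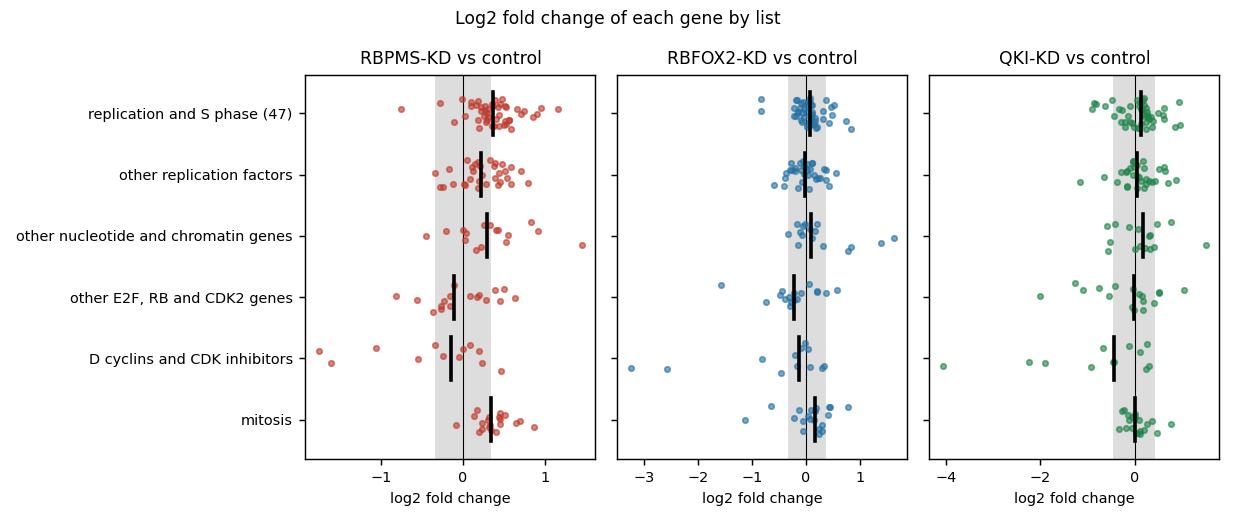
Log2 fold change against control of each tested gene (dots) by list, with the list median as a black bar and the middle 50% of all genes in grey. The replication and mitosis medians lie just above the grey band in RBPMS-KD, and single D cyclin and RB genes reach far below it in QKI-KD.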

How the data were processed

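Raw read counts per gene and a normalised table were deposited by the authors for 12 libraries. Per the study's methods, reads were subsampled, aligned with STAR to mRatBN7.2 and counted with featureCounts on RefSeq genes, and the deposited signal table was made by the authors with noisyR and quantile normalisation. The study states 1 equal depth after subsampling, yet the deposited totals differ between libraries and exceed it, and this was not resolved. Treatment of multi-mapping and overlapping reads is not given in the sources used here. Among counts of 1 to 19, 68.1% were even, against 50.9% of high counts, and halved counts were one of the alternatives.

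The counts were filtered with filterByExpr, scaled by TMM and fitted with edgeR 4.0.16 (R 4.3.3), 1 mean per group over 12 libraries, by the quasi-likelihood test with Benjamini-Hochberg adjustment over 18438 genes at 0.05. Each SE is the log2 fold change divided by the square root of F. DESeq2 1.42.0 and limma 3.58.1 (on log2 of the normalised signal) served as alternatives, beside other scalings and filters, single comparisons, a replicate block and each library left out. For single genes no exact permutation test was used, since groups of 3 allow no p under 0.1. The 47 genes, the other lists and the tests were chosen with earlier results of these data known. Library values are given for genes over 2-fold and for the 2 genes of each role with the largest called change, and for Pole and Mcm7, chosen after their values were seen. Most genes named from the other lists are among the 2 largest rises and 2 largest falls past the test with a mean of at least 5 CPM in each comparison. The exceptions are the siRNA targets, Ccnd3, Tagln (named for its part in the marker sum), and Kdr, Ptprc and Krt19 (named for their low counts). On data simulated as RBPMS-KD against control with 18438 genes, 50 of 50 genes changed 1.3-fold were recovered and 16 of 50 changed 1.15-fold. The simulation used 1 fixed dispersion and changed only well-counted genes, few beside the 10946 called in the data. Recovery in the data may therefore differ.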

Additional observations from a re-analysis of the deposited data

How the results depend on the processing

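Scaling moved the medians of the 47 genes most. With library totals only, the median log2 fold change was 0.32 in RBPMS-KD, 0.14 in RBFOX2-KD and 0.22 in QKI-KD, and −0.14 between RBFOX2-KD and QKI-KD. It was 0.18 between RBPMS-KD and RBFOX2-KD and 0.0911 between RBPMS-KD and QKI-KD, where 11 genes were lower. On the normalised table, with or without a pseudocount of 1, the medians were 0.32, 0.13 and 0.20 against control, 0.21 between RBPMS-KD and RBFOX2-KD and 0.12 between RBPMS-KD and QKI-KD, where 10 genes were lower. Under both, 2 genes passed 2-fold in QKI-KD. With no filter the medians against control were 0.35, 0.08 (0.0753) and 0.12, and with a mean of at least 200 counts 0.11 in RBFOX2-KD, 0.17 in QKI-KD and 0.24 between RBPMS-KD and RBFOX2-KD. DESeq2 and RLE size factors gave 0.0803 and 0.0806 in RBFOX2-KD, and halved counts 0.15 in QKI-KD. The cause of these shifts was not tested. Calls that held under all alternatives numbered 42 of 45 in RBPMS-KD, 25 of 32 in RBFOX2-KD and 35 of 41 in QKI-KD.

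Leaving out single libraries gave medians of 0.36 to 0.38 in RBPMS-KD, 0.0681 to 0.10 in RBFOX2-KD, 0.13 to 0.15 in QKI-KD, 0.26 to 0.30 between RBPMS-KD and RBFOX2-KD, 0.20 to 0.23 between RBPMS-KD and QKI-KD and −0.12 to −0.10 between RBFOX2-KD and QKI-KD. Genes over 2-fold numbered 1 to 2 in RBPMS-KD and 0 to 1 in QKI-KD.

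Against control, the values that changed sign did not pass the test in either form. They were Gins3 in RBPMS-KD vs control without single libraries (−0.0299 to 0.0177) and Chaf1b there with library totals (−0.0151) and without single libraries (−0.00305 to 0.0504). In RBFOX2-KD they were Gins2 with DESeq2 (−0.00629), RLE (−0.00634), no filter (−0.0116), the normalised table (−0.00922 and −0.00923), halved counts (−0.00202) and single libraries left out (−0.0527 to 0.0255), Gins3 (0.00622), Pola2 (0.0320) and Pole2 (0.0176) with library totals, Pola2 on the normalised table (0.0161), and Chaf1b without single libraries (−0.0219 to 0.0241). In QKI-KD they were Gins2 with library totals (0.0308) and on the normalised table (0.0640), and Slbp with library totals (0.0636), with the higher filter (0.0122) and on the normalised table (0.0219).

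Between knockdowns, some values that changed sign did pass. With library totals 10 genes did so for RBPMS-KD against QKI-KD, 3 of them past the test after the change and 4 others before it, and 8 for RBPMS-KD against RBFOX2-KD, 0 past the test after it and 2 before. Among those named above, Mcm3 in RBPMS-KD vs QKI-KD was −0.121 with library totals, −0.0831 on the normalised table, −0.0358 with the higher filter, −0.00695 with DESeq2, −0.00707 with RLE and −0.00345 to 0.0207 without single libraries. Mcm2 in RBPMS-KD vs QKI-KD was −0.0907, −0.0826 and −0.00501 under the first 3 of these, and Ccne1 in RBPMS-KD vs RBFOX2-KD was −0.0146 with library totals.

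Replicate numbers did not pair the libraries, as deviations of same-numbered libraries correlated at −0.204 to 0.155 and 3 of 12 libraries correlated best with their own number. With the replicate block, 42 genes were higher and 3 lower in RBPMS-KD (median 0.36), 21 and 10 in RBFOX2-KD (median 0.09) and 27 and 14 in QKI-KD (median 0.14). The RBFOX2-KD call that the block ended was the fall of Mcm5 (−0.08, adjusted p 0.0626 by edgeR's quasi-likelihood test).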

Other observations

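Paired genes, either subunits of one enzyme or the alternative E cyclins, did not always move together. These pairs were chosen after their values were seen, and each value is a log2 ratio less its control mean (SD, n = 3). The ratio of Pola1 to Pola2, subunits of polymerase alpha, was 0.75 ± 0.0886 in RBPMS-KD, 0.77 ± 0.0854 in RBFOX2-KD and 0.91 ± 0.0619 in QKI-KD. The ratio of Pole to Pole2, subunits of polymerase epsilon, was 0.05 ± 0.137, 0.36 ± 0.0186 and −0.87 ± 0.0650. The ratio of Rrm1 to Rrm2 was 0.48 ± 0.0606, 0.59 ± 0.0277 and −0.09 ± 0.0273, so both subunits of ribonucleotide reductase fell by nearly the same factor in QKI-KD. The ratio of Ccne2 to Ccne1 was 1.71 ± 0.135, 1.68 ± 0.0737 and 1.05 ± 0.0387. The ratio of Prim2 to Prim1, subunits of primase, was 0.02 ± 0.0297, 0.35 ± 0.0572 and −0.28 ± 0.109. Ratios of E2f1 to E2f2, Mcm7 to Mcm3 and Pole to Pold1 were also computed and are not printed. No test was run on these ratios.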
